A study of Mus musculus with 14 samples.

Results

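The transcripts of 32 genes that act in mitosis were followed in mouse hepatocytes in which Srsf1, the gene of a splicing factor, had been deleted. The genes were taken by symbol from a list of mitotic cyclins, kinases, checkpoint, kinetochore, motor and cytokinesis proteins, and all 32 were found among the 54446 genes of the abundance table. They fall into 10 roles, and each role is described below with its members.

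In a dividing cell, cyclin B bound to the kinase CDK1 drives entry into mitosis, and the spindle checkpoint holds the cell there until every chromosome is attached to spindle microtubules. The anaphase promoting complex with its activator CDC20 then marks cyclin B for destruction, the chromosomes separate, and kinesins and midzone proteins organise the cut between the daughter cells. Transcripts of most of these genes are made in the G2 and M phases of the cycle, and hepatocytes divide in the growing liver of young mice but rarely in the adult.

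Polyadenylated RNA of purified C57BL/6 hepatocytes was sequenced in 14 libraries of 6 groups. HKO animals (srsf1f/f;albcre+/-) carry floxed Srsf1 alleles and Cre under the albumin promoter, and their controls carry the albumin-Cre transgene (albcre+/-), with no floxed allele named in their labels. There were 2 HKO and 2 control libraries at postnatal day 10 (P10), and 2 of each at 1 month. In the acute model every animal was floxed (srsf1f/f); at 8 weeks AAV8 virus delivered, under the hepatocyte-specific TBG promoter, iCre (acute HKO, 3 libraries) or GFP (3 libraries), and hepatocytes were taken at 10 weeks. Whether replicates came from different animals is not given in the labels, and p-values measure the spread among these libraries only.

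The targeted gene was lower in each knockout library than in each library it was compared with. Srsf1 measured 30.0 and 23.4 TPM (transcripts in 1e+06, a share of all transcripts corrected for length) in HKO libraries at P10, against 43.6 and 46.4 TPM in controls, which did not pass (log2 fold change -0.74, limma adjusted p = 0.0545). At 1 month it measured 7.74 and 9.17 TPM in HKO, against 23.2 and 20.01 TPM in controls, and in the acute model 3.69, 5.34 and 4.16 TPM in acute HKO, against 16.5, 29.7 and 32.3 TPM with GFP. The 11 hepatocyte markers found of 12 listed summed to between 33711 and 141020 TPM in all libraries, with the levels by group given below, while the macrophage, endothelial, stellate and cholangiocyte lists each stayed at or below 742 TPM. HKO replicate 2 at P10 stood apart: Xist was at 74.7 TPM there and at or below 0.0147 TPM in the other 13 libraries, and Hba-a1 measured 583 TPM, against at most 95.5 TPM elsewhere. Counts of gene calls at P10 are given with and without it for the mitotic genes, but for only some of the other gene lists. Sequencing depth cannot be read from TPM and is unknown here.

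Summed over the 32 mitotic genes, abundance was 496 and 545 TPM in HKO hepatocytes at P10, against 313 and 332 TPM in controls. At 1 month it was 98.8 and 120 TPM in HKO, against 10.8 and 16.5 TPM in controls. In the acute model at 10 weeks it was 11.4, 12.6 and 12.7 TPM in acute HKO, against 6.99, 8.19 and 10.8 TPM with GFP. The knockout libraries were thus above their comparison libraries in all 3 settings, at levels that differed widely. Relative to the mean of P10 controls, the sum was 33.97% in HKO at 1 month, 4.24% in controls at 1 month, 3.78% in acute HKO and 2.69% with GFP. The gene Ccnf, which did not follow the other members, held 4.45, 4.14 and 2.65 TPM of the acute HKO sums. Of the GFP sums it held 1.57, 2.98 and 3.09 TPM, and of the 1 month control sums 4.40 and 4.06 TPM. Without Ccnf the sums of the acute groups overlapped. In bulk RNA, fewer dividing cells and less RNA per dividing cell cannot be told apart.

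**Figure D1:**
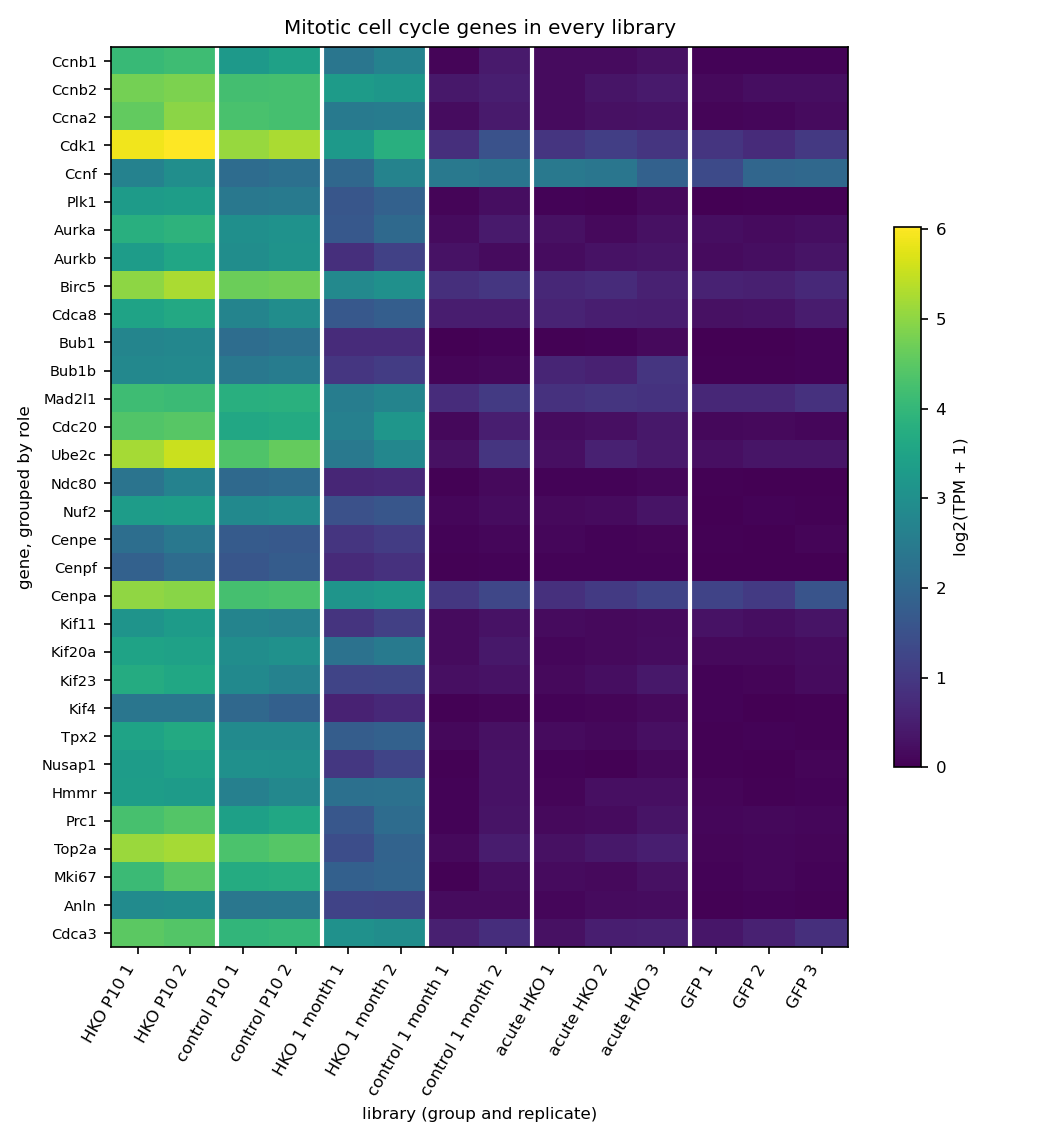
Abundance of the 32 mitotic genes (rows, grouped by role) in each of the 14 libraries (columns, grouped by condition), as log2(TPM + 1). The P10 libraries are bright throughout, HKO libraries at 1 month lie between them and the dark control, acute HKO and GFP libraries, and Ccnf lies between 1.57 and 6.92 TPM in every library.

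The members also share sequence features upstream of their starts, and 5 of them are shown because they span the patterns described below. The cell cycle homology region is a short element (TTTGAA or TTTAAA) found in many promoters of G2 and M phase genes, and CCAAT is the box bound by NF-Y. RefSeq start sites of GRCm38.p6 were available for 28 of the 32 members, and each sequence below is the 120 bases just before the start, read 5′ to 3′ on the gene's own strand, with both elements in capitals on either strand. Cyclins B1 and B2 and Cdk1 were among the members that were many times higher in HKO at 1 month, Ccnf was the exception there, and Bub1b had the highest ratio in the acute model. Ccnb1 is read from chr13:100786487-100786606 (minus strand), Ccnb2 from chr9:70421555-70421674 (minus), Cdk1 from chr10:69352913-69353032 (minus), Ccnf from chr17:24251410-24251529 (minus) and Bub1b from chr2:118598091-118598210 (plus).
Ccnb1: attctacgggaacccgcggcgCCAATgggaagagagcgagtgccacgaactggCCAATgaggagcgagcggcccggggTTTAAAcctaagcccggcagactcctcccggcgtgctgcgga
Ccnb2: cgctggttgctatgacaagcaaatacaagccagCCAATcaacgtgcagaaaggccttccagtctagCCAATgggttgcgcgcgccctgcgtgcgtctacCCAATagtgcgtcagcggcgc
Cdk1: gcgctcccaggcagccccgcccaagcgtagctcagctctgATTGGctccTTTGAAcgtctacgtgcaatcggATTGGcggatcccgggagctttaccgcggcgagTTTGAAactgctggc
Ccnf: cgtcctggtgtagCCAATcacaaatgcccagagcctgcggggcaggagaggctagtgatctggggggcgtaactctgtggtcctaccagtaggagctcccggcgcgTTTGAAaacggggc
Bub1b: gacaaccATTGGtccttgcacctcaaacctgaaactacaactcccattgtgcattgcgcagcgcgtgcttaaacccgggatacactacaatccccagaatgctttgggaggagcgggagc

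Within the 250 bases before the start, CCAAT on either strand was present in 22 of 28 members (78.6%) and in 37.5% of 27025 RefSeq genes, counted in the same way over all starts of a gene. TTTGAA or TTTAAA on either strand was present in 14 members (50%), against 28.1% of all genes, and both elements in 13 members (46.4%), against 10.1% of all genes. Neither element was found in 5 members, namely Mad2l1, Ndc80, Nuf2, Nusap1 and Anln, none of which is shown. The CCAAT boxes of Ccnb2 begin at -87, -54 and -21 bases from the RefSeq start, those of Ccnb1 at -99 and -67, and the last of Cdk1 at -80 and -48. A pair of boxes on 1 strand with starts 31 to 34 bases apart, a spacing chosen after the sequences were seen, occurred in 7 members (25.0%) and in 0.947% of all genes. Ccnf holds both elements, as Ccnb1 does, although its transcript behaved differently, and Bub1b holds 1 CCAAT and no TTTGAA or TTTAAA. No overlaps between the elements were found in the members. A match is a string of letters in a window and was not tested as a binding site.

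With age the mitotic transcripts nearly vanished from the control libraries and declined less far in the HKO libraries. In controls 31 of 32 members were lower at 1 month than at P10 (limma adjusted p under 0.05; 38.2% of 11736 genes tested were called lower), and in HKO the same number were lower (62.2% of genes). The 31 were lower in both 1 month libraries than in both P10 libraries, which 68.4% of genes were in controls and 74.9% in HKO, and Ccnf was higher in both in controls (13.4% of genes). The filter of 1 TPM was on the mean over both ages, so genes high only at P10 could pass it, and these shares depend on it. With no filter the same 31 members were called lower in controls (6196 of 32890 genes were) and in HKO (10309 of 32890). In the main fit all genes' median log2 change was -0.43 in controls and -0.70 in HKO, so single changes within 1 comparison are given relative to the median gene wherever that shift is above 0.1. Every p-value and call in limma tests the unshifted change, not the relative one. Differences between 2 effects are printed unshifted, with the shift of the median gene beside them. The members' median relative change was -2.31 in controls and -1.11 in HKO, on the log2(TPM + 1) scale, which understates changes of low genes. Of the other cell markers tested, all 12 macrophage and 10 endothelial markers were also called lower in controls at 1 month. So were all 7 stellate and fibroblast and all 7 neutrophil markers. Median relative changes of these lists were -3.38, -2.06, -2.22 and -3.09, while of 11 hepatocyte markers 3 rose and 4 fell. Whether these cells had a part in the fall of the members was not tested. Leaving out HKO replicate 2 at P10, 31 members were still called lower in HKO.

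Without Ccnf, the level left in controls at 1 month was 0.605% (Bub1, a checkpoint kinase) to 6.63% (Mad2l1, a checkpoint protein) of the P10 control mean. The same members in HKO at 1 month stood at 11.3% to 66.4% of the P10 control mean, with a median of 30.1%. The highest share was that of Hmmr, which helps to assemble the spindle, at 3.67 and 3.72 TPM in HKO at 1 month, against 5.14 and 5.99 TPM in P10 controls. Kif20a (60.7%), Cdc20 (57.7%), Plk1 (52.6%) and Ccnb1 (51.8%) followed. Top2a, the topoisomerase that untangles chromosomes, had the lowest share, at 1.68 and 2.81 TPM in HKO at 1 month, against 19.1 and 20.7 TPM in P10 controls. Aurkb (13.97%), Nusap1 (16.3%), Ndc80 (18.2%) and Bub1 (18.5%) were next above it. This difference across ages was not tested, since it crosses genotype and age at once. Members with more TPM in P10 controls also tended to have more in HKO at 1 month (Spearman's rho 0.784 across the 32 genes, which are not independent and share their transcript lengths, with no library in common).

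**Figure D2:**
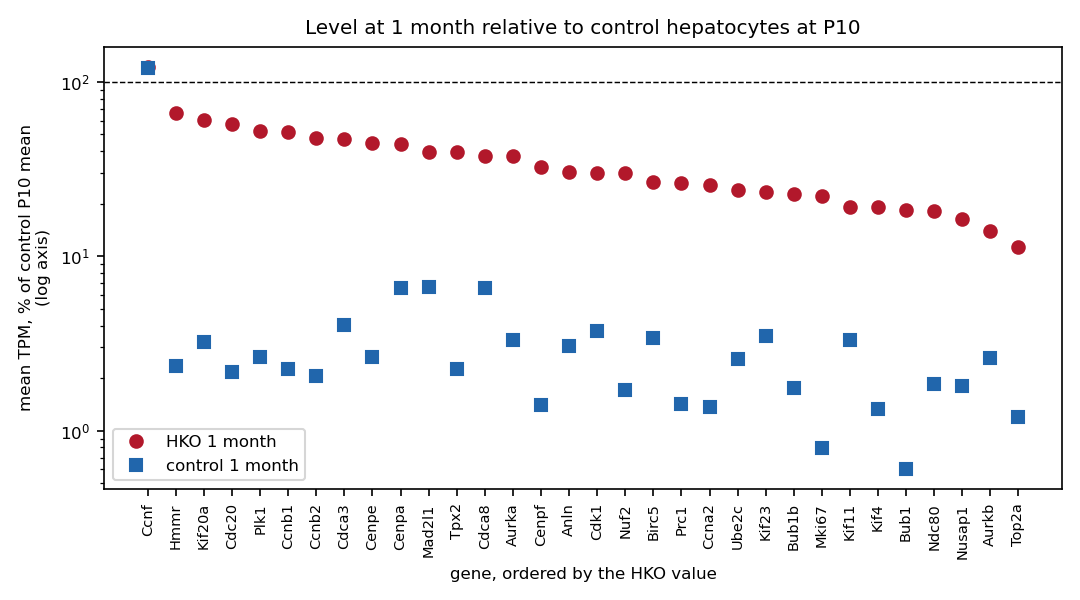
Mean TPM at 1 month in HKO (circles, n = 2) and control (squares, n = 2) hepatocytes as a percentage of the mean of P10 controls (dashed line, 100%), on a log axis, for the 32 genes ordered by the HKO value. Except for Ccnf, every HKO point lies between 11.3% and 66.4% and every control point between 0.605% and 6.63%.

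At P10, when control hepatocytes still held most of these transcripts, HKO hepatocytes held somewhat more of each. Every one of the 32 genes was higher in both HKO libraries than in both controls; 62.6% of all genes tested showed the same order. The ratio of mean TPM ran from 1.26 (Mad2l1) to 2.02 (Plk1), with a median of 1.58, and in HKO replicate 1 alone from 1.20 (Cenpf) to 2.05 (Kif23), with a median of 1.53. In the limma test 15 members rose and 0 fell (10.8% of all genes tested rose, and 1.87% fell), and 28 had an unadjusted p under 0.05. The median gene was itself 0.25 higher on the log2 scale at P10, and the members' median was 0.31 above that.

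Both mitotic kinases outside the passenger complex rose at P10. Plk1, which acts from mitotic entry to cytokinesis, measured 8.82 and 9.30 TPM in HKO, against 4.36 and 4.63 TPM in controls (relative change 0.62 on the log2 scale, SE 0.17, limma adjusted p = 0.00827). Aurka, the kinase of the spindle poles, measured 12.9 and 13.9 TPM in HKO, against 6.95 and 7.35 TPM in controls (0.57, SE 0.19, limma adjusted p = 0.0205). The libraries of the groups did not overlap for either gene. Kif23, a motor of the central spindle, measured 12.0 and 11.0 TPM in HKO, against 6.31 and 5.40 TPM in controls (0.61, SE 0.17, limma adjusted p = 0.00720). The partners of the anaphase promoting complex rose as well: Cdc20 measured 19.8 and 21.0 TPM in HKO, against 11.2 and 11.7 TPM in controls, and Ube2c, its ubiquitin-conjugating enzyme, 36.1 and 46.0 TPM in HKO, against 19.7 and 23.2 TPM in controls. Of the 4 spindle and midzone proteins Tpx2, Hmmr and Prc1 rose and Nusap1 did not pass (0.11, limma adjusted p = 0.197).

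Among the cyclins only Ccnb1 passed, at 15.7 and 16.8 TPM in HKO, against 8.47 and 9.98 TPM in controls (0.51, SE 0.21, limma adjusted p = 0.0354). Cdk1, at 58.9 and 64.1 TPM in HKO, against 33.1 and 37.2 TPM in controls, had the highest TPM of the members and did not pass (0.54, SE 0.28, limma adjusted p = 0.0875). The smallest relative log2 fold changes were those of Mad2l1 and Bub1b, both of the checkpoint, and of Cenpf at the kinetochore, none of which passed. Mad2l1 measured 16.7 and 16.1 TPM in HKO, against 12.9 and 13.2 TPM in controls (0.06). Cenpf measured 2.69 and 3.38 TPM in HKO, against 2.07 and 2.40 TPM in controls (0.06), and Bub1b 6.00 and 6.17 TPM in HKO, against 4.32 and 4.73 TPM in controls (0.11). In the chromosomal passenger complex Cdca8 rose, while Aurkb and Birc5 differed by 0.19 and 0.18 and did not pass. The other members that rose were Bub1, Cenpe, Cenpa, Top2a and Anln.

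The P10 count rests on each library and on the scaling. After rescaling the libraries by median ratios, which moves the median gene to 0.006, Plk1, Aurka and Kif23 rose (3 members; 6.22% of genes), and with a pseudocount of 0.1 in place of 1 the count was 1. It was 1 and 0 without control replicates 1 and 2, and 2 and 1 without HKO replicates 1 and 2. All 32 log2 fold changes stayed positive in each of these fits. Without HKO replicate 2, the library with high Xist and globin, 30 of 32 were above the median gene, and without control replicate 1, 31 of 32. At P10 the authors' deposited table had 15 members that rose and 0 that fell (13.4% of its genes rose), and 13 of those were among the 15 called here.

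At 1 month the HKO ratios were larger, and their size varied among members. Of 32 members 29 rose and 0 fell (4.87% of all genes tested rose, and 1.99% fell), and 31 were higher in both HKO libraries than in both controls (21.1% of all genes). Some members reached the filter of 1 TPM only through the P10 libraries. In a fit of the 4 libraries at 1 month, 21 members were tested and 20 rose (455 of 10341 genes rose). Anln, Aurkb, Bub1, Bub1b, Cenpe, Cenpf, Kif11, Kif23 and Nusap1, called in the main fit, were not tested there. Except for Cdk1, Cenpa and Ccnf, the members averaged below 1 TPM in controls at 1 month. Those tested in the fit of 4 libraries thus passed its filter through the HKO libraries, where they were high. With no filter 23 of 32 members rose (291 of 32890 genes rose). Except for Ccnf, the ratio of mean TPM ran from 5.39 (Aurkb) to 30.5 (Bub1), with a median of 12.9. The median gene did not move (-0.001), and the members' median relative log2 fold change was 1.58. Rescaling by median ratios gave 31 members that rose (6.82% of genes), and leaving out 1 library gave 24 to 30. The authors' deposited table had 30 members that rose at 1 month and 0 that fell (8.97% of its genes rose), with Ccnf and Bub1 as the exceptions.

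**Figure D3:**
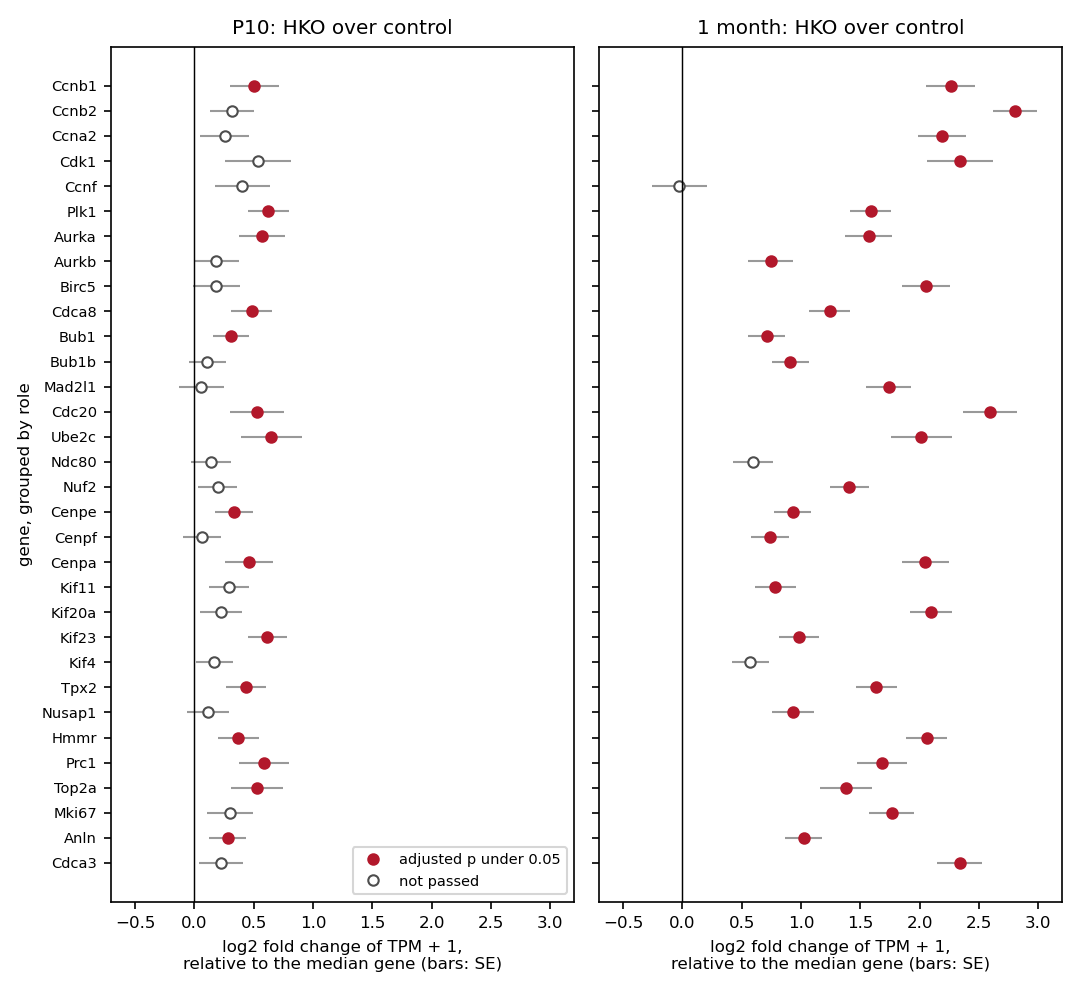
Log2 fold change of TPM + 1 relative to the median gene in HKO over control hepatocytes at P10 (left) and 1 month (right) for the 32 genes, with standard errors as bars; filled points passed an adjusted p of 0.05 in limma. At P10 all points lie between 0.06 and 0.65 and 15 are filled, and at 1 month 29 are filled, with Ccnf at -0.02.

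The mitotic cyclins and their kinase had some of the largest changes at 1 month. Ccnb2 (cyclin B2, ENSMUSG00000032218.7, chr9:70407692-70421547, minus strand, GRCm38) measured 8.94 and 8.10 TPM in HKO, against 0.308 and 0.422 TPM in controls (2.80 relative to the median gene on the log2 scale, SE 0.19, limma adjusted p = 7.70e-06). Ccnb1 (cyclin B1, ENSMUSG00000041431.16, chr13:100778650-100786570, minus strand) measured 4.15 and 5.40 TPM in HKO, against 0.0561 and 0.360 TPM in controls (2.26, SE 0.21, limma adjusted p = 5.95e-05). Ccna2, cyclin A2 of S and G2 phases, measured 4.58 and 4.77 TPM in HKO, against 0.141 and 0.360 TPM in controls (2.19, SE 0.20, limma adjusted p = 6.72e-05). All 3 were low in each control library and high in each HKO library. Cdk1 (ENSMUSG00000019942.13, chr10:69335146-69352938, minus strand) measured 8.35 and 12.8 TPM in HKO, against 0.756 and 1.87 TPM in controls (2.34, SE 0.28, limma adjusted p = 0.000405).

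Ccnf was the exception in this role. It encodes cyclin F, the F-box subunit of a ubiquitin ligase that acts in G2 and, unlike cyclins A and B, does not bind a cyclin-dependent kinase. It measured 3.06 and 5.50 TPM in HKO at 1 month, against 4.40 and 4.06 TPM in controls, so the groups overlapped (-0.02, SE 0.23, limma adjusted p = 0.978). Its sign changed with the setting: the log2 fold change was 0.26 when mitochondrially encoded genes were left out of the totals, and 0.31 without HKO replicate 1. Ccnf was also the member that did not fall with age in controls, with 4.40 and 4.06 TPM at 1 month, against 3.37 and 3.65 TPM at P10 (relative log2 fold change 0.64; the unshifted change of 0.21 had a limma adjusted p = 0.476). After median-ratio rescaling it rose with age in controls (0.73, limma adjusted p = 0.0122).

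The other kinases and the passenger complex, which corrects wrong attachments of chromosomes, all rose. Plk1 measured 2.05 and 2.67 TPM in HKO at 1 month, against 0.0597 and 0.176 TPM in controls (1.59, SE 0.17, limma adjusted p = 0.000232), and Aurka 2.18 and 3.19 TPM in HKO, against 0.125 and 0.347 TPM in controls. Birc5 (survivin) measured 6.15 and 7.17 TPM in HKO, against 0.768 and 0.922 TPM in controls (2.05, SE 0.20, limma adjusted p = 9.81e-05). Its partner Aurkb was the weakest of the complex, at 0.750 and 1.24 TPM in HKO, against 0.233 and 0.136 TPM in controls (0.74, SE 0.19, limma adjusted p = 0.0371). The Aurkb call was lost without HKO replicate 2, without either control replicate, and with no filter on low values.

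Checkpoint genes and the partners of the complex they restrain rose together. Cdc20 (ENSMUSG00000006398.15, chr4:118432901-118437352, minus strand), the activator that the checkpoint holds, measured 5.19 and 8.03 TPM in HKO at 1 month, against 0.0885 and 0.411 TPM in controls (2.59, SE 0.23, limma adjusted p = 4.31e-05). Ube2c measured 4.42 and 5.86 TPM in HKO, against 0.201 and 0.904 TPM in controls. Mad2l1, which binds Cdc20 at unattached kinetochores, measured 4.85 and 5.56 TPM in HKO, against 0.695 and 1.04 TPM in controls (1.74, SE 0.19, limma adjusted p = 0.000227). The checkpoint kinase Bub1 had the highest ratio of means, at 0.670 and 0.668 TPM in HKO, against a listed 0 and 0.0438 TPM in controls, from so low a control level that its log2 fold change was only 0.71 (SE 0.15, limma adjusted p = 0.0173). Bub1b measured 0.949 and 1.11 TPM in HKO, against 0.0620 and 0.0976 TPM in controls (0.91, SE 0.16, limma adjusted p = 0.00516).

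At the kinetochore and centromere 4 of 5 members rose. Cenpa, the histone variant that marks the centromere, measured 7.82 and 8.37 TPM in HKO at 1 month, against 0.979 and 1.45 TPM in controls (2.05, SE 0.20, limma adjusted p = 9.81e-05). Nuf2, a subunit of the microtubule-binding NDC80 complex, rose by 1.41, but Ndc80 itself, at 0.572 and 0.622 TPM in HKO, against 0.0180 and 0.104 TPM in controls, did not pass (0.59, SE 0.17, limma adjusted p = 0.0645). Both Ndc80 libraries in HKO were nonetheless above both controls.

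Of the 4 kinesins Kif20a, Kif23 and Kif11 rose. Kif20a, a motor of the late spindle and cleavage furrow, measured 3.86 and 4.62 TPM in HKO at 1 month, against 0.136 and 0.315 TPM in controls (2.10, SE 0.18, limma adjusted p = 3.65e-05). Kif4, a motor on chromosome arms and the midzone, measured 0.483 and 0.605 TPM in HKO, against 0.0195 and 0.0561 TPM in controls, and did not pass (0.57, SE 0.15, limma adjusted p = 0.0502). The remaining spindle, chromosome and cytokinesis genes all rose: Hmmr, Prc1, Tpx2, Nusap1, Top2a, Mki67, Anln and Cdca3. Of these, Mki67, the proliferation marker Ki-67, measured 2.62 and 2.81 TPM in HKO, against 0.0316 and 0.165 TPM in controls. Cdca3, which triggers destruction of a mitosis-blocking kinase, measured 7.21 and 6.80 TPM in HKO, against 0.454 and 0.730 TPM in controls (2.34, SE 0.19, limma adjusted p = 2.50e-05).

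The HKO effect differed between the ages for part of the members. In the test of the difference itself 11 members had a larger effect at 1 month than at P10 and 0 a smaller one (1.01% of all genes tested had a larger effect, and 1.80% a smaller one). They were Ccnb1, Ccnb2, Ccna2, Birc5, Mad2l1, Cdc20, Cenpa, Kif20a, Hmmr, Mki67 and Cdca3. For Ccnb2 the difference of log2 fold changes was 2.23 (SE 0.26, limma adjusted p = 0.00115), or 2.48 relative to the median gene, whose effect was 0.25 lower at 1 month. Ccnf had the opposite sign and did not pass (-0.68, or -0.43 relative to the median gene, limma adjusted p = 0.338). The count was 21 after median-ratio rescaling (2.33% of genes), 7 and 5 without P10 control replicates 1 and 2, 7 without control replicate 1 at 1 month, and 9 without the P10 HKO library with high Xist and globin. Without HKO replicate 2 at 1 month it was 13, and 1 member had a smaller effect. On the log2(TPM + 1) scale the same ratio counts for less in a gene near 1 TPM, and with a pseudocount of 0.1 the count was 23.

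In adult hepatocytes 2 weeks after the virus the members had low TPM, with Ccnf as the exception. Averaged over the 6 acute libraries, only Cenpa and Ccnf reached 1 TPM and were tested, and neither passed in limma or had an unadjusted p under 0.05 (40.7% of 9963 genes were called, 5.93% as higher). The authors' deposited table gave the members a median mean normalized count of 44.7 in the acute comparison, against 397 at 1 month and 2425 at P10. The median gene was 0.36 lower in acute HKO. Over all 32 members, 14 were higher in every acute HKO library than in every GFP library (10.4% of 29662 genes), Kif11 was lower (22.0% of genes), and 17 overlapped.

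Bub1b (ENSMUSG00000040084.9, chr2:118598211-118641591, plus strand, GRCm38) had the largest ratio of the acute model. It measured 0.543, 0.469 and 0.910 TPM in acute HKO, against 0.0298, 0.0248 and 0.0486 TPM with GFP, so the groups were far apart. The mean in acute HKO was 18.6 times that with GFP and 14.2% of the P10 control mean, while no other member except Ccnf was above 7.15%. Its protein-coding transcript measured 0.297, 0.288 and 0.501 TPM in acute HKO, against 0.0298, 0.0248 and 0.0353 TPM with GFP. A retained-intron transcript, Bub1b-203, added 0.169, 0.0700 and 0.263 TPM in acute HKO and was listed at 0 in each GFP library. With no filter on low values Bub1b passed (0.66 on the log2 scale, SE 0.11, limma adjusted p = 0.0288). In the authors' deposited table its log2 fold change was 4.57 (adjusted p = 6.49e-29).

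Nuf2, at 6.06 times the GFP mean, Top2a at 5.01, Cenpf at 4.67, Tpx2 at 4.37 and Ccnb1 at 3.99 had the next highest ratios in the acute model. Nuf2 measured 0.106, 0.139 and 0.253 TPM in acute HKO, against 0.0140, 0.0425 and 0.0256 TPM with GFP. Top2a measured 0.198, 0.312 and 0.427 TPM in acute HKO, against 0.0582, 0.0729 and 0.0558 TPM with GFP. Ccnb1 measured 0.124, 0.138 and 0.208 TPM in acute HKO, against 0.0346, 0.0379 and 0.0452 TPM with GFP. All 3 stayed below 0.5 TPM, and their groups did not overlap. With no filter, Cenpf, Bub1b, Ccnb1, Anln and Top2a rose (5 members; 2.49% of genes), and with no filter and a pseudocount of 0.1 it was Bub1b, Cenpf, Ccnb1, Top2a, Tpx2 and Nuf2 (6 members; 2.99% of genes). Kif11, the motor that pushes spindle poles apart, measured 0.126, 0.112 and 0.123 TPM in acute HKO, against 0.222, 0.166 and 0.255 TPM with GFP, and did not pass with no filter (limma adjusted p = 0.103).

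For Cdk1 the acute groups overlapped, at 0.904, 1.15 and 0.890 TPM in acute HKO, against 0.894, 0.683 and 1.01 TPM with GFP. Cenpa overlapped too, at 0.770, 1.04 and 1.33 TPM in acute HKO, against 1.33, 1.02 and 1.97 TPM with GFP. Ccnf had the highest level of the members in these libraries, at 4.45, 4.14 and 2.65 TPM in acute HKO, against 1.57, 2.98 and 3.09 TPM with GFP (relative change 0.79 on the log2 scale; the unshifted change of 0.43, SE 0.23, had a limma adjusted p = 0.137). It passed after median-ratio rescaling (log2 fold change 0.65, limma adjusted p = 0.0238), where 1391 of 9916 genes rose. For the acute model the authors' deposited table had 18 members that rose and 0 that fell (16.4% of its genes rose), Ccnf among them.

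**Figure D4:**
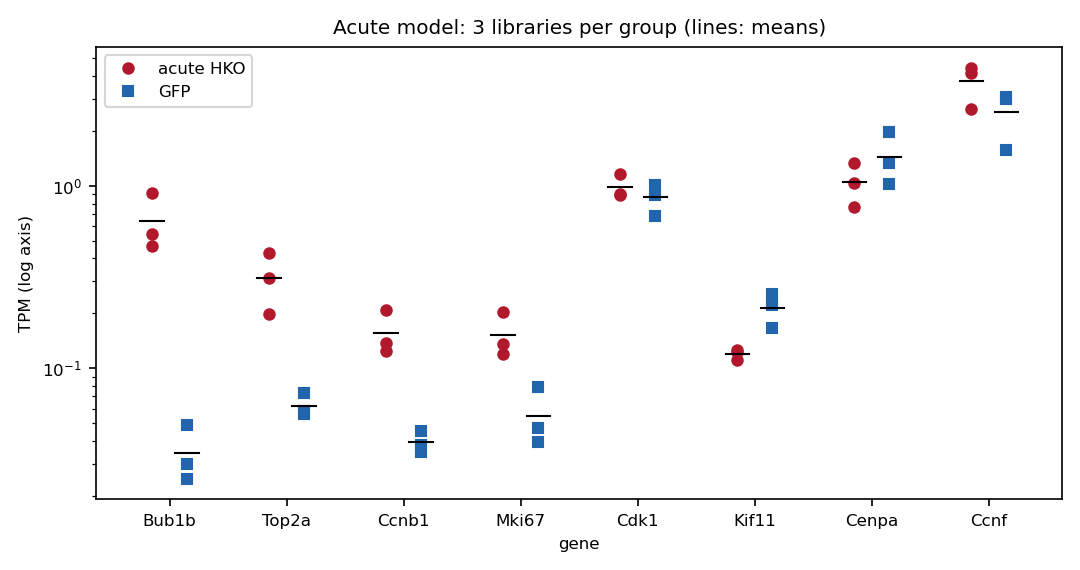
TPM on a log axis of 8 mitotic genes in the 3 acute HKO (circles) and 3 GFP (squares) libraries, with group means as lines. Bub1b shows the widest gap, Top2a, Ccnb1 and Mki67 lie higher in every acute HKO library, Cdk1, Cenpa and Ccnf overlap, and Kif11 is lower in acute HKO.

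On the log2(TPM + 1) scale the acute effect was smaller than the effect at 1 month for most members. In a fit of all 14 libraries 31 members were tested, and for 26 the acute log2 fold change was below that at 1 month, with 0 above it (5.82% of all genes were below, 1.01% above). Of the members tested, all but Cenpa and Ccnf averaged below 1 TPM in the acute libraries and passed the filter through the HKO and control libraries. At such levels this scale holds a change near 0: Nuf2, at 6.06 times the GFP mean, changed by 0.18. A smaller acute effect was thus partly set by the low levels. The median gene was 0.33 lower in this difference. For Cdc20 the difference was -2.45 (SE 0.25, limma adjusted p = 3.18e-05), or -2.12 relative to the median gene, and for Ccnb1 -2.11 (SE 0.22, limma adjusted p = 4.61e-05), or -1.78 relative to it. Members that did not pass were, relative to the median gene, Ccnf at 0.79, Bub1b at 0.08, Aurkb at -0.38, Ndc80 at -0.20 and Kif4 at -0.19. Without the shift Bub1b was at -0.25, so its sign turned. Cenpf was not tested. Age, Cre delivery and time since deletion all differ between the models and cannot be told apart.

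Other cell cycle genes moved with the members to different degrees. Of 74 other mitotic genes tested, 37 rose at 1 month and 0 fell, led by Ckap2, a spindle protein, at 5.37 ± 0.824 TPM in HKO and 0.204 ± 0.228 TPM in controls, by Ect2 and by Racgap1, which act in cytokinesis (means ± SD, n = 2 each). After median-ratio rescaling 43 of 69 rose and 1 fell at 1 month. At P10, 23 of the 74 rose, but 3 of 69 after median-ratio rescaling, where 6.22% of all genes rose, and 3 of 69 without HKO replicate 2. Psrc1 had the smallest p at P10. Of the 16 listed subunits of the anaphase promoting complex 0 passed at either age in limma, although their partners Cdc20 and Ube2c rose at both. Of 37 DNA replication genes 9 rose at P10, among them Dbf4, Mcm2 and Cdt1, against 3 of 34 after median-ratio rescaling and 0 of 36 without HKO replicate 2. The list had 3 that rose at 1 month, namely Dbf4, Gins2 and Mcm6. The 1 month replication count moved with the processing, to 1 with no filter, 8 after median-ratio rescaling and 18 without mitochondrially encoded genes. The count over all genes moved too, with 291 of 32890, 785 of 11504 and 2601 of 12692 that rose in these settings. In the main fit it was 572 of 11736.

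Of 18 G1 regulators Cdc25a and Myc rose at P10 (11.1%, beside 10.8% of all genes), and Ccnd1 and Myc at 1 month (11.1%, beside 4.87% of all genes). Ccnd1, the growth factor responsive cyclin D1, averaged 18.4 ± 7.52 TPM in HKO and 3.27 ± 0.0565 TPM in controls at 1 month (SD, n = 2 each; 2.13, SE 0.32, limma adjusted p = 0.00221). Of 12 transcription factors of the mitotic programme only Foxm1 rose at 1 month, at 0.897 ± 0.165 TPM in HKO and 0.0659 ± 0.0176 TPM in controls. Of 10 cell cycle inhibitors tested 4 rose and 1 fell at P10, where Cdkn1a (p21) averaged 24.1 ± 3.16 TPM in HKO and 4.73 ± 0.657 TPM in controls and Cdkn1c fell, while 0 passed at 1 month in limma (2 rose after median-ratio rescaling). The 5 inhibitor calls at P10 were 3 after median-ratio rescaling and 2 without HKO replicate 2. In the acute model 4 of 8 inhibitors rose and 2 fell (3 and 1 of 7 after median-ratio rescaling), and Cdkn1a averaged 17.7 ± 13.3 TPM in acute HKO and 2.55 ± 2.30 TPM with GFP (SD, n = 3 each). Of the other mitotic genes 16 were tested in the acute model, where 5 fell and 0 rose, a share near the 34.8% of all genes that fell, and after median-ratio rescaling 4 fell and 2 rose.

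**Figure D5:**
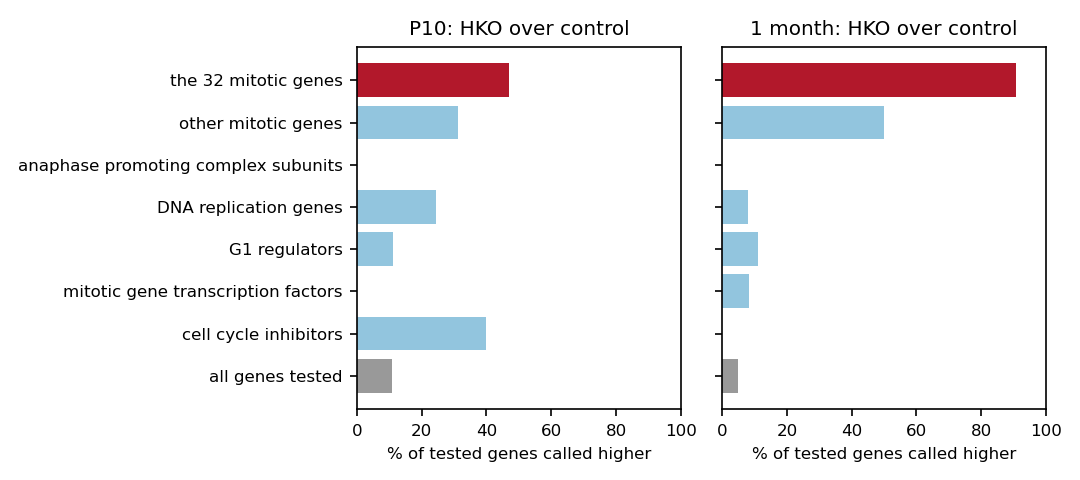
Percentage of tested genes that rose in HKO over control hepatocytes at P10 (left) and 1 month (right) for the 32 mitotic genes, other cell cycle lists and all genes tested, by limma at an adjusted p of 0.05. The 32 genes reach 15 of 32 at P10 and 29 of 32 at 1 month, other mitotic genes 23 and 37 of 74, and all genes 10.8% and 4.87%; after median-ratio rescaling, which is not plotted, the P10 counts are 3 of 32 and 3 of 69.

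Markers of other liver cells moved with genotype at 1 month. Of 12 macrophage markers 9 rose (4 after median-ratio rescaling), none was at 0 in any library, and they summed to 158 and 56.8 TPM in HKO, against 16.5 and 20.5 TPM in controls. The mitotic sums of the same HKO libraries were 98.8 TPM in replicate 1 and 120 TPM in replicate 2. Endothelial markers (0 of 10 passed) summed to 39.3 and 12.5 TPM in HKO, against 12.4 and 9.48 TPM in controls, and stellate and fibroblast markers (1 of 7 passed) to 27.9 and 10.5 TPM, against 5.09 and 4.90 TPM in controls. Cholangiocyte markers (1 of 4 passed, Spp1) summed to 34.7 and 20.3 TPM in HKO, against 1.93 and 1.59 TPM in controls, where 3 of the 8 listed were at 0 in each library. The part of these cells in the mitotic transcripts was not tested.

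At P10 the macrophage sum was 742 and 510 TPM in HKO, against 435 and 456 TPM in controls (1 of 12 passed, Cd68), and 3 of 4 cholangiocyte markers rose (2 without HKO replicate 2). Erythroid markers summed to 487 and 2927 TPM in HKO, against 388 and 231 TPM in controls (1 of 8 passed, Hbb-bs, and 0 of 6 without HKO replicate 2). In the acute model 6 of 7 macrophage markers rose, but 0 of 7 after median-ratio rescaling, and all 12 listed summed to 27.4, 8.21 and 52.9 TPM in acute HKO, against 5.64, 7.38 and 14.4 TPM with GFP. Across the same 3 acute HKO libraries Bub1b measured 0.543, 0.469 and 0.910 TPM, and a relation to the macrophage sum was not tested. Hepatocyte markers summed to 98453 and 77376 TPM in HKO at P10, against 141020 and 135130 TPM in controls (2 of 11 fell, 6 after median-ratio rescaling). At 1 month they summed to 58625 and 77854 TPM in HKO, against 69832 and 89599 TPM in controls (1 of 11 fell, 5 after rescaling), and in the acute model to 43836, 51612 and 33711 TPM in acute HKO, against 43669, 58430 and 56201 TPM with GFP (5 of 11 fell, 4 after rescaling). Of all genes, 34.8% fell in the acute model, and 2730 of 9916 fell there after rescaling. At P10 1.87% of all genes fell (699 of 11504 after rescaling), and at 1 month 1.99% (902 of 11504). The part of the cells marked by these lists was not tested at P10 or in the acute model either.

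SRSF1 acts in splicing, and the transcripts that make up each gene were compared as well. Of the members, 9 had at least 2 transcripts with enough TPM to test at P10 and at 1 month, and 0 changed in usage in limma's diffSplice test at either age (0.586% and 0.235% of genes tested were called). At 1 month 4 of the 9 (Cdca3, Ccna2, Cenpa and Top2a) had an unadjusted p under 0.05, and at P10 0 did. In the acute model 0 members could be tested, where 35.5% of genes were called. With a lower minimum of 0.5 TPM per transcript, 15 members were tested and Cdca3 and Cenpa passed at 1 month.

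For Cenpa the isoform shares lay in the same direction in each model. Shares of single transcripts are of the summed TPM of the 3 Cenpa transcripts tested, not of the whole gene. The main nonsense-mediated decay transcript, Cenpa-202, held 45.0% in HKO and 56.6% in controls at P10 (limma adjusted p = 0.853). At 1 month it held 46.3% in HKO and 58.7% in controls (limma adjusted p = 0.310). In the acute model, which could not be tested, protein-coding transcripts held 41.3% of all Cenpa TPM in acute HKO and 26.4% with GFP. By this whole-gene measure they held 39.6% in HKO and 30.6% in controls at P10. At 1 month they held 41.4% in HKO and 28.9% in controls. For the typical member most of the TPM came from protein-coding transcripts, with medians over the members of 94.1% in HKO and 95.5% in controls at P10 and 96.2% in HKO and 81.5% in controls at 1 month. Pseudogenes of Ccnb1, Ccnb2 and Kif4 that could share reads with their parents were at or below 0.0603 TPM in every library.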

How the data were processed

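The authors deposited transcript abundances for all 14 libraries in TPM, made with kallisto 0.46.0 on GRCm38 (mm10) after bcl2fastq 2.17.1.14, per the submitters' processing notes. They also deposited 3 gene tables from DESeq2 (version not given in the sources used here) that hold, per the file headers, a mean normalized count (a signal averaged over libraries), a log2 fold change, its standard error, a test score, a p-value and an adjusted p-value. Gene TPM were sums over transcripts. Library sums were 999999.6 to 1000000.24 TPM, and depth is unknown. The TPM table held 137767 transcripts.

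Genes that averaged 1 TPM or more over the libraries fitted were tested on log2(TPM + 1) with limma 3.58.1 in R 4.3.3 (lmFit, eBayes with a trend, two-sided), Benjamini-Hochberg adjusted across the genes fitted and called below 0.05. One fit of the 8 HKO and control libraries gave both ages (4 residual degrees of freedom), another of 6 the acute comparison (4), and one of all 14 the difference between models (8). Comparisons within a model share libraries. Usage was tested with diffSplice on transcripts with at least 1 TPM and 5% of their gene, called with a change of at least 10 percentage points. The fits were checked on simulated data. Coordinates are those of GENCODE M21 for the 29 members with the same identifier version; Ccnf, Kif11 and Kif20a have another, and none is printed. Promoters are from RefSeq, GRCm38.p6.

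The members, lists and tests were chosen with earlier results of these data known. Per-library values are given for 1 to 4 members of each role and for the 3 largest and 3 smallest changes of each knockout comparison, and up to 3 genes of each other list with the smallest p are named. Alternatives were median-ratio rescaling, totals without mitochondrially encoded genes, a pseudocount of 0.1, no filter, a replicate block, fits of 4 libraries and leaving out each library; no filter with a pseudocount of 0.1 was added after seeing the data.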

Additional observations from a re-analysis of the deposited data

Results flagged for a closer look

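The knockout effect differed between 2 settings for many of the mitotic genes, by limma's test of the difference itself, and each value below is an unshifted difference of log2 fold changes with an adjusted p under 0.05. At 1 month 11 members had a larger HKO effect than at P10. Among cyclins the difference was 2.23 for Ccnb2, 1.68 for Ccna2 and 1.50 for Ccnb1. At the checkpoint and its target it was 1.81 for Cdc20 and 1.43 for Mad2l1, and at the chromosomes 1.62 for Birc5, 1.33 for Cenpa and 1.21 for Mki67. For the spindle and cytokinesis genes it was 1.86 for Cdca3, 1.62 for Kif20a and 1.44 for Hmmr. The median gene's difference was -0.25, and the effects at the 2 ages share no library.

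The acute effect was below the 1 month effect for 26 members, with the median gene at -0.33. All members tested but Cenpa and Ccnf averaged below 1 TPM in the acute libraries, where the log2(TPM + 1) scale holds changes near 0. Among cyclins, kinases and the passenger complex the difference was -2.68 for Ccnb2, -2.25 for Cdk1, -2.11 for Ccnb1, -2.05 for Ccna2, -1.54 for Aurka, -1.53 for Plk1, -1.99 for Birc5 and -1.05 for Cdca8. For checkpoint genes and their target it was -2.45 for Cdc20, -1.90 for Ube2c, -1.58 for Mad2l1 and -0.66 for Bub1. At kinetochores and on chromosomes it was -2.29 for Cenpa, -1.22 for Nuf2, -0.89 for Cenpe, -1.63 for Mki67 and -1.07 for Top2a. For motors, spindle and cytokinesis it was -2.47 for Cdca3, -2.11 for Kif20a, -1.92 for Hmmr, -1.58 for Prc1, -1.50 for Tpx2, -0.91 for Anln, -0.90 for Kif11, -0.89 for Nusap1 and -0.83 for Kif23. Bub1b, which had the largest acute ratio, did not pass this test (-0.25, or 0.08 relative to the median gene, limma adjusted p = 0.422).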

How the results depend on the processing

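Of 107 recomputed counts of calls among the members, 87 stayed within 1.5 times of the reported count. The 107 include usage counts of the acute model, where 0 members were tested in any setting, so these could not change. Acute gene counts covered only 2 members in most settings. At P10, where 15 members rose, the count was 3 after median-ratio rescaling, 1 with a pseudocount of 0.1, 9 with no filter, 1 with no filter and a pseudocount of 0.1, 29 in a fit of the 4 libraries of that age and 0 to 2 when 1 library was left out. For the larger effect at 1 month than at P10 (11 members) it was 21 after median-ratio rescaling, 18 without mitochondrially encoded genes, 23 with a pseudocount of 0.1 and 5 to 13 when 1 library was left out. In the acute comparison (0 of 2) it was 1 after median-ratio rescaling and 1 without mitochondrially encoded genes (Ccnf), 5 with no filter and 6 with a pseudocount of 0.1 as well. Usage calls at 1 month (0 of 9) were 2 of 15 at a minimum of 0.5 TPM. Leaving out 1 library gave 24 to 30 at 1 month, 31 to 32 for the fall with age in HKO, 31 in controls and 21 to 28 for the smaller acute effect. Signs turned for Ccnf at 1 month (0.26 without mitochondrially encoded genes, and -0.37 to 0.31 when 1 library was left out, positive without control replicate 1, at 0.02, and without HKO replicate 1), for Ccnf with age in HKO (0.24 after median-ratio rescaling) and for Cenpa in the acute model (0.0068 without mitochondrially encoded genes); none of these passed. Counts over all genes moved with the settings as well. At P10, 4415 of 12327 genes rose in the fit of 4 libraries, 771 of 11736 with a pseudocount of 0.1 and 1883 of 32890 with no filter. A larger effect at 1 month was called for 297 of 12692 genes without mitochondrially encoded genes and for 171 of 11736 with a pseudocount of 0.1. The causes were not tested.

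Replicate numbers were not treated as pairs in the main fits. Deviations of same-numbered libraries correlated at 0.0129 at P10, 0.277 at 1 month and -0.00348, 0.278 and 0.242 in the acute model. With so few libraries per group, these values cannot show whether the numbers pair the samples. With a replicate block 21 members rose at P10, 30 at 1 month and 16 more so at 1 month, 0 of 2 passed in the acute model, and 25 had a smaller acute effect. Of all 11736 genes tested with this block, 2462 rose at P10, 911 at 1 month and 257 more so at 1 month. A smaller acute effect was called for 927 of 11219 genes.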
